A study of Mus musculus with 16 samples.

Results

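Heat shock chaperone genes were examined in the striatum of mice given the antipsychotic risperidone. Of the 10 genes chosen by name, 8 were measured by probe sets that name no other gene: Hspa1b, Hspa5, Hspa8, Hsp90aa1, Hsp90b1, Hsph1, Dnajb1 and Hspb1. They have 19 of the 45037 probe sets tested, and Hspa1a and Hsp90ab1 were not analysed here. A probe set is a group of short probes read together, and most of these genes have several. RNA came from male mice of 7 to 8 weeks, from the inbred strains DBA/2J (DBA/2JRccHsd) and A/J (A/JOlaHsd), with 1 array per mouse and 16 arrays in all. In each strain, 4 mice received risperidone, which blocks dopamine D2 and serotonin 5-HT2A receptors, as 1 intraperitoneal injection of 1 mg/kg a day on 3 days. The remaining 4 mice per strain serve as controls: they are labelled untreated, while the treatment protocol names saline. No mouse carries an engineered allele.

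Heat shock proteins are molecular chaperones. They hold unfolded or newly made proteins so that these fold rather than clump, and many are made in larger amounts when heat, oxidants or other stress unfolds proteins. In the cytosol, HSP70 proteins bind short unfolded stretches, J-domain proteins such as Dnajb1 deliver clients to them, HSP110 proteins such as Hsph1 help them exchange nucleotide, and HSP90 proteins finish the folding of kinases and steroid receptors. Stress switches on the inducible members through heat shock factor 1, which binds heat shock elements in their promoters. Hspa5 (BiP) and Hsp90b1 (GRP94) do the same work inside the endoplasmic reticulum, where the unfolded protein response raises them through the endoplasmic reticulum stress element.

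Promoter sequences are given for 4 members in which 1 of these elements was found. They are the 250 bases before the annotated start, from RefSeq on build GRCm38.p6, each 5′ to 3′ on its gene's own strand. Capitals mark a heat shock element of 2 units, GAANNTTC or TTCNNGAA, in Hspb1 and Hspa1b, and the endoplasmic reticulum stress element in Hspa5 and Hsp90b1. The windows lie at chr17:34959239-34959488 (minus strand, Hspa1b), chr5:135887669-135887918 (plus strand, Hspb1), chr2:34771840-34772089 (plus strand, Hspa5) and chr10:86705445-86705694 (minus strand, Hsp90b1).
Hspa1b: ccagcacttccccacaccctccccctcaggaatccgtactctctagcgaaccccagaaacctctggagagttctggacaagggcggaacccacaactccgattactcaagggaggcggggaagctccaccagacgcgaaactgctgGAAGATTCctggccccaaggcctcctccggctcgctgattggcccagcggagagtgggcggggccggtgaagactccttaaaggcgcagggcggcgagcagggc
Hspb1: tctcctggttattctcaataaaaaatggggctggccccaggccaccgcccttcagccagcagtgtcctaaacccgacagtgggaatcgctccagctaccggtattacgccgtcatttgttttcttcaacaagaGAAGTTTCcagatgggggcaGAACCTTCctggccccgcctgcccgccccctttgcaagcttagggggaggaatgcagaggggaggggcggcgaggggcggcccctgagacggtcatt
Hspa5: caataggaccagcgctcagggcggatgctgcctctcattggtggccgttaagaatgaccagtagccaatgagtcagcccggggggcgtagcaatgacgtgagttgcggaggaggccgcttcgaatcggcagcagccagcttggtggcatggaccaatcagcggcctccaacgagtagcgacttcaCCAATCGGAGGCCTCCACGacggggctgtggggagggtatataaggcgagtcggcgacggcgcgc
Hsp90b1: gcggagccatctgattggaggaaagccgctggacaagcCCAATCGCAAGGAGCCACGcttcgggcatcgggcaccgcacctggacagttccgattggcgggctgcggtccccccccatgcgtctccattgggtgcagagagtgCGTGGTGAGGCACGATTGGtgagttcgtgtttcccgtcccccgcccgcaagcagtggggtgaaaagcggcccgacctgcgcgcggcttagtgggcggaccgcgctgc
Both strands were searched. A heat shock element of 2 units was found in 12.8% of 32851 promoter windows of the same length and the endoplasmic reticulum stress element in 0.113%. Hsp90b1 holds the stress element on each strand. Among the windows not shown, those of Hspa1a and Hsph1 hold a heat shock element of 2 units, and neither window of Dnajb1 holds either element. A stricter heat shock element of 3 units, found in 0.466% of all windows, was in 0 of the 9 member windows. The Hspa1a and Hspa1b windows differ at 3 of 250 bases (98.8% the same). Transcripts of these neighbouring near-identical genes on chromosome 17 may not be told apart by the probes either, so values named Hspa1b are uncertain in that respect. Windows were matched for 7 of the 10 members. A match describes letters and does not show that a factor binds there.

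Some arrays stood apart from their labels or their group. At 46 to 49 probe sets that separate the strains, the share of DBA/2J signal was 87.3% to 102% in DBA/2J risperidone mice and 96.0% to 102.4% in DBA/2J controls. In A/J risperidone mice it was 28.5%, 36.5%, 0.283% and 39.7% in replicates 1 to 4, against -3.66% to 1.13% in A/J controls. DBA/2J control replicate 4 had a mean ribosomal protein gene level of 9.82 over 66 genes, against 10.26 to 10.38 in the other 15 arrays. Leaving out A/J risperidone replicates 1, 2 and 4 keeps 1 array in that group, and values without them are given as those from replicate 3 alone. The striatal projection neuron markers Ppp1r1b and Penk ranged from 5.99 to 7.57 and from 6.13 to 7.98 over all arrays. Drd2, which encodes the dopamine D2 receptor, ranged from 3.62 to 4.90, below the median probe set level of 5.67. Of the cortex markers, 5 were measured. Slc17a7 ranged from 9.52 to 10.2, Lamp5 from 8.62 to 9.34 and Tbr1 from 8.06 to 8.79. Neurod6 ranged from 7.42 to 8.26 and Fezf2 from 7.01 to 8.0. How much cortex the dissections held was not tested.

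No chaperone probe set passed the test for risperidone in either strain. The test was limma with Benjamini-Hochberg adjustment over all 45037 probe sets and a threshold of 0.05. In DBA/2J mice 0 of 19 passed, against 0.04% of all probe sets. In A/J mice 0 of 19 passed, against 0.0% of all. For the mean of the effects in both strains 0 of 19 passed, against 0.0266%, and for the strain interaction (the effect in DBA/2J minus that in A/J) 0 of 19, against 0.0%. At an unadjusted p under 0.05 the members numbered 1 of 19 in DBA/2J, against 10.7% of all probe sets, and 3 of 19 in A/J, against 5.51%. For the mean effect they numbered 2 of 19 (6.9% of all) and for the difference between strains 2 of 19 (9.19%). The median risperidone minus control difference over the 19 probe sets was -0.035 in DBA/2J and -0.0825 in A/J on the log2 scale, beside -0.005 and 0.0 over all probe sets.

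**Figure D1:**
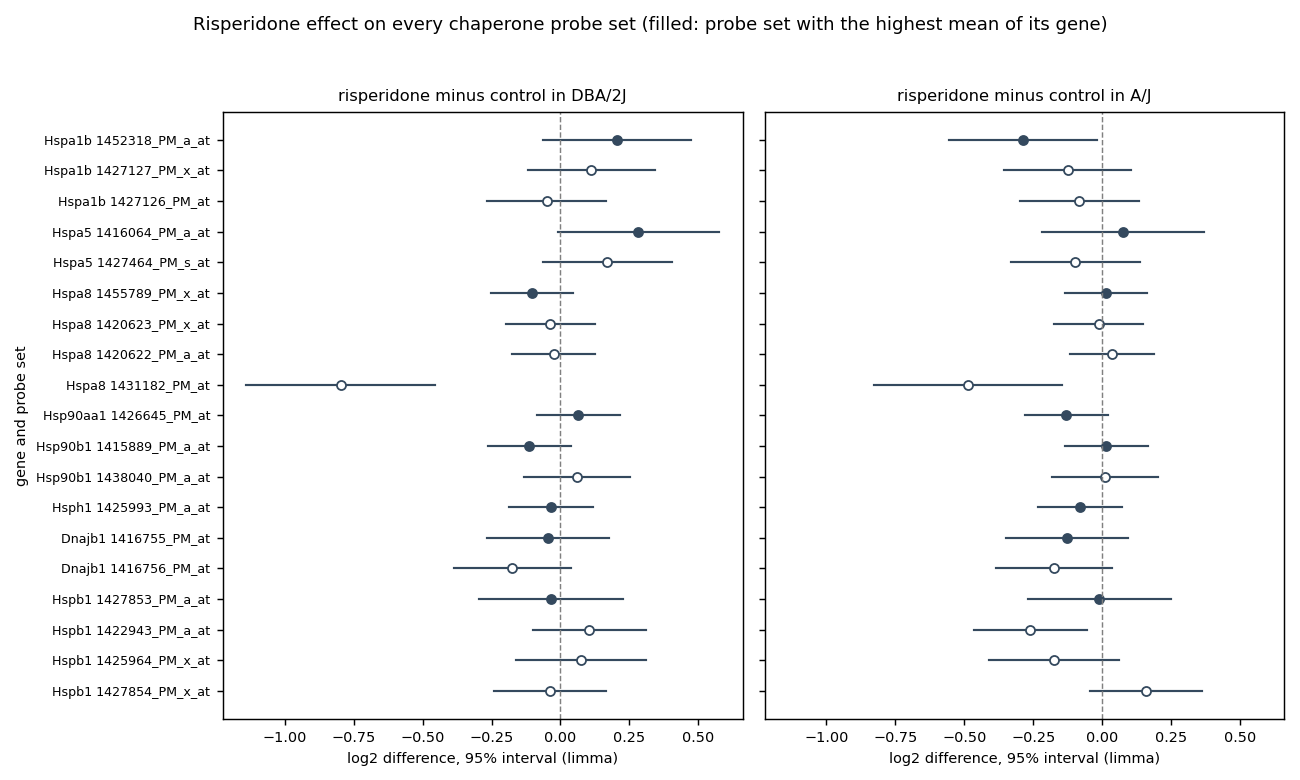
Risperidone minus control differences of the 19 chaperone probe sets on the log2 scale, with 95% intervals from limma, in DBA/2J (left) and A/J (right); filled points are the probe set with the highest mean of each gene. Apart from Hspa8 1431182_PM_at, at -0.80 and -0.49, all points lie within 0.29 of 0.

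The intervals show how large a difference these arrays leave room for, probe set by probe set. For the probe set with the highest mean of each gene, the largest difference in either direction was 0.2825 in DBA/2J and 0.2875 in A/J. The 95% intervals of these 8 reached from -0.30 to 0.58 in DBA/2J and from -0.56 to 0.37 in A/J. Limits were narrower for Hspa8, Hsp90aa1, Hsp90b1 and Hsph1 than for Dnajb1, Hspb1, Hspa1b and Hspa5. For Hsp90aa1 the interval was -0.08 to 0.21 in DBA/2J and -0.28 to 0.02 in A/J. For Hspa8 (1455789_PM_x_at) it was -0.25 to 0.05 in DBA/2J and -0.14 to 0.16 in A/J. Another Hspa8 probe set, 1431182_PM_at, lay outside these limits, at -1.14 to -0.46 in DBA/2J and -0.83 to -0.15 in A/J.

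**Figure D2:**
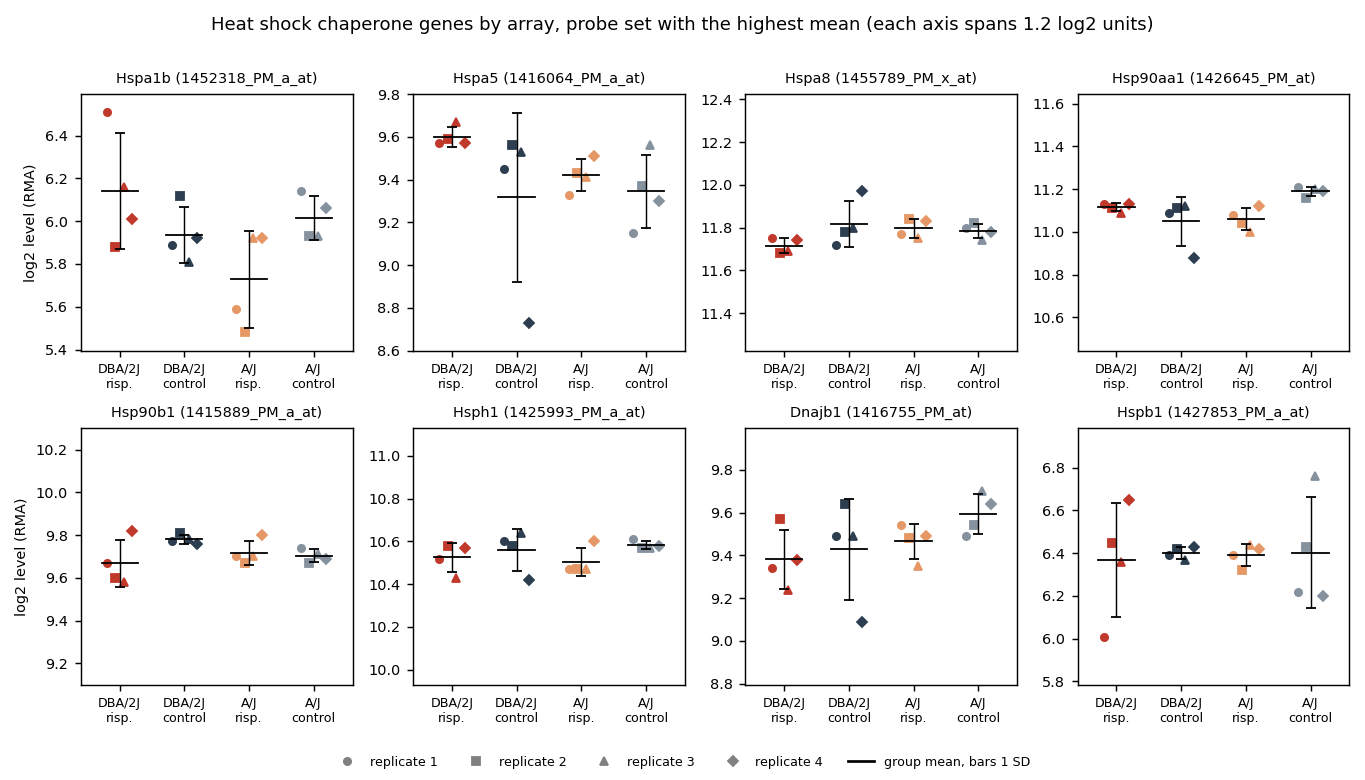
Log2 level of each of the 8 genes on every array (points, shaped by replicate), by its probe set with the highest mean, with the group mean and 1 SD; groups run DBA/2J risperidone, DBA/2J control, A/J risperidone, A/J control. Hspa5 shows DBA/2J control replicate 4 at 8.73, below the other 15 arrays at 9.15 to 9.67.

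Hspa1b encodes the stress-inducible cytosolic HSP70, kept low in unstressed cells. By 1452318_PM_a_at it had log2 levels of 6.51, 5.88, 6.16 and 6.01 in DBA/2J risperidone mice, against 5.89, 6.12, 5.81 and 5.92 in DBA/2J controls. Its levels were 5.59, 5.48, 5.92 and 5.92 in A/J risperidone mice, against 6.14, 5.93, 5.93 and 6.06 in A/J controls. All 4 A/J risperidone mice lay below all 4 A/J controls, by as little as 0.01, whereas the DBA/2J groups overlapped.

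The Hspa1b difference was -0.29 in A/J (1.22-fold lower, SE 0.13, limma adjusted p = 0.868) and 0.20 in DBA/2J (adjusted p = 0.566). The strain interaction was 0.49 (95% interval 0.11 to 0.87, adjusted p = 0.452), the largest of the 19. From A/J risperidone replicate 3 alone, the A/J difference was -0.095 and the strain interaction 0.300. A second probe set, 1427127_PM_x_at, differed by 0.11 in DBA/2J and by -0.12 in A/J. The third, 1427126_PM_at, ranged from 3.49 to 3.99, below the median probe set level, and differed by -0.05 in DBA/2J and -0.08 in A/J. The x in 1427127_PM_x_at marks probes that may also match other sequences. The same holds for Hspa8 1455789_PM_x_at and 1420623_PM_x_at, and for Hspb1 1425964_PM_x_at and 1427854_PM_x_at.

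Hspa8 encodes HSC70, the HSP70 that neurons make at all times and that also strips clathrin from synaptic vesicles. Among the 4 probe sets naming it, 3 read levels near the top of the array and differed little between groups. By 1455789_PM_x_at it had 11.75, 11.68, 11.69 and 11.74 in DBA/2J risperidone mice, against 11.72, 11.78, 11.80 and 11.97 in DBA/2J controls. Under risperidone, A/J mice had 11.77, 11.84, 11.75 and 11.83, against 11.80, 11.82, 11.74 and 11.78 in A/J controls. The risperidone differences of 1455789_PM_x_at, 1420623_PM_x_at and 1420622_PM_a_at were -0.10, -0.04 and -0.02 in DBA/2J and 0.01, -0.01 and 0.03 in A/J.

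The fourth Hspa8 probe set, 1431182_PM_at, had 6.64, 7.08, 6.74 and 6.70 in DBA/2J risperidone mice, against 7.44, 7.68, 7.36 and 7.87 in DBA/2J controls. A/J mice given risperidone had 6.58, 6.47, 6.27 and 6.79, against 6.58, 7.48, 7.06 and 6.94 in A/J controls. All 4 DBA/2J risperidone mice lay below all 4 DBA/2J controls, while the A/J groups overlapped. The difference was -0.80 in DBA/2J (1.74-fold lower, 95% interval -1.14 to -0.46, limma adjusted p = 0.113) and -0.49 in A/J (1.40-fold lower, -0.83 to -0.15, adjusted p = 0.695). Averaged over both strains it was -0.64 (SE 0.12, 1.56-fold lower, adjusted p = 0.0742). The strain interaction was -0.31 (adjusted p = 0.684). From A/J risperidone replicate 3 alone, the A/J difference was -0.745 and the strain interaction -0.053.

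This was the member probe set nearest to the threshold. The mean effect passed in 5 of 25 other settings, with adjusted p from 0.0240 to 0.493 over them. Among these, it passed without A/J control replicate 1 (-0.715, adjusted p = 0.0240) and without DBA/2J risperidone replicate 2 (-0.691, adjusted p = 0.0430). Without DBA/2J control replicate 4 it was -0.595 (adjusted p = 0.131), and without the 3 A/J risperidone arrays of intermediate strain share it was -0.771 (adjusted p = 0.493). After subtracting group means, its levels over 16 arrays correlated with those of the other Hspa8 probe sets at r = 0.12 to 0.365, and 1420623_PM_x_at and 1420622_PM_a_at correlated at r = 0.83. The high-level 1455789_PM_x_at had r = -0.388 and r = -0.15 with those 2, so the probe sets of Hspa8 give no single pattern among mice. Which transcript 1431182_PM_at reads was not tested.

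Mean levels of 12 immediate early genes, which neurons switch on when active, moved the same way as this probe set. They were 7.04 to 7.40 in DBA/2J risperidone mice, against 7.72 to 7.97 in DBA/2J controls, and 7.20 to 7.42 in A/J risperidone mice, against 7.57 to 7.70 in A/J controls. Of the 12 genes, 12 had a lower value after risperidone in DBA/2J and 11 in A/J. Of these, 6 and 0 passed the test, beside 0.0526% and 0.0% of 17097 genes. This list was chosen with earlier results of these data known, so its counts do not test the genes as a set. After subtracting group means, 1431182_PM_at correlated with this score at r = 0.456 (rho 0.624) over 16 arrays. Its r was -0.603 (rho -0.653) with the mean level of 9 striatal projection neuron markers and -0.597 with 8 microglia markers. The projection neuron score was 6.36 to 6.64 in DBA/2J risperidone mice, against 6.13 to 6.35 in DBA/2J controls. These groups did not overlap, but the nearest values were 6.359 and 6.347. In A/J the score was 6.35 to 6.50 in risperidone mice, against 6.29 to 6.87 in controls. Of the 9 markers, 6 were higher and 3 lower after risperidone in DBA/2J, and 1 higher and 8 lower in A/J. In each strain 0 of the 9 passed. The parts of neuronal activity and of tissue content in the Hspa8 values were not tested.

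**Figure D3:**
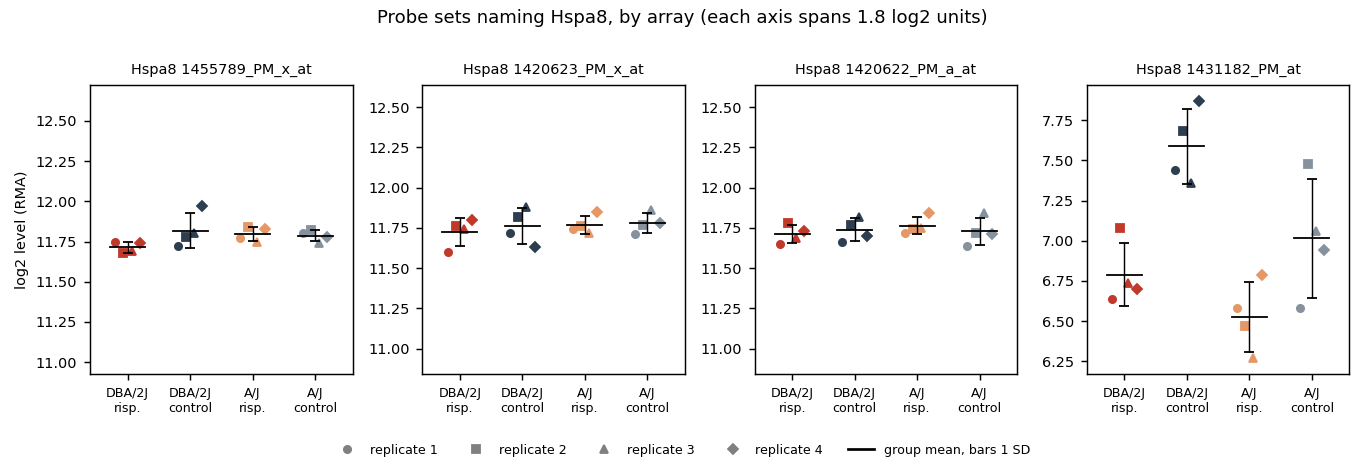
Log2 levels of the 4 probe sets naming Hspa8 on every array (points, shaped by replicate), with group means and 1 SD, on axes of equal span. For 1431182_PM_at, group means were 6.79 (DBA/2J risperidone), 7.59 (DBA/2J control), 6.53 (A/J risperidone) and 7.02 (A/J control), while the other 3 stay between 11.60 and 11.97.

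Hspa5, the HSP70 of the endoplasmic reticulum and main target of the unfolded protein response, had 9.57, 9.59, 9.67 and 9.57 in DBA/2J risperidone mice by 1416064_PM_a_at, against 9.45, 9.56, 9.53 and 8.73 in DBA/2J controls. In A/J risperidone mice it had 9.33, 9.43, 9.41 and 9.51, against 9.15, 9.37, 9.56 and 9.30 in A/J controls. The DBA/2J groups did not overlap, but the nearest values were 9.57 and 9.56, and replicate 4 set the control mean. The DBA/2J difference was 0.28 (95% interval -0.01 to 0.58, limma adjusted p = 0.479), and 0.087 (adjusted p = 0.847) without that array. In A/J it was 0.07 (adjusted p = 0.997), or 0.065 from replicate 3 alone. The second probe set, 1427464_PM_s_at, differed by 0.17 in DBA/2J, or 0.037 without DBA/2J control replicate 4, and by -0.10 in A/J.

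Hsp90b1 is the HSP90 of the endoplasmic reticulum. By 1415889_PM_a_at it had 9.67, 9.60, 9.58 and 9.82 in DBA/2J risperidone mice, against 9.77, 9.81, 9.78 and 9.76 in DBA/2J controls. The A/J mice had 9.70, 9.67, 9.70 and 9.80 after risperidone and 9.74, 9.67, 9.71 and 9.69 as controls. Groups overlapped in both strains, and the differences were -0.11 in DBA/2J (limma adjusted p = 0.573) and 0.01 in A/J (adjusted p = 0.997). The second probe set, 1438040_PM_a_at, differed by 0.06 and 0.01 in the same comparisons. It had 9.35, 9.48, 9.47 and 9.47 in DBA/2J risperidone mice, against 9.44, 9.49, 9.52 and 9.08 in DBA/2J controls. Control replicate 4 thus lowered that control mean. Over 16 arrays, and with group means subtracted, r was 0.188 between the 2 Hsp90b1 probe sets. Hspa5 had r = 0.061 with the first of them and r = 0.907 with the second, or 0.774 without DBA/2J control replicate 4, so the 2 Hsp90b1 probe sets do not give 1 pattern.

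Hsp90aa1 encodes the inducible cytosolic HSP90. It had 11.13, 11.11, 11.09 and 11.13 in DBA/2J risperidone mice, against 11.09, 11.11, 11.12 and 10.88 in DBA/2J controls. The A/J risperidone mice had 11.08, 11.04, 11.00 and 11.12, against 11.21, 11.16, 11.20 and 11.19 in A/J controls. The 4 A/J risperidone mice lay below the 4 A/J controls without overlap. The difference was -0.13 in A/J (1.09-fold lower, SE 0.07, limma adjusted p = 0.944), or -0.190 from A/J replicate 3 alone, and 0.06 in DBA/2J (adjusted p = 0.763).

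Hsph1, the cytosolic HSP110, had 10.52, 10.58, 10.43 and 10.57 in DBA/2J risperidone mice, against 10.60, 10.58, 10.64 and 10.42 in DBA/2J controls. Under risperidone, A/J mice had 10.47, 10.47, 10.47 and 10.60, against 10.61, 10.57, 10.57 and 10.58 in A/J controls. Both pairs overlapped, and the differences were -0.04 in DBA/2J (limma adjusted p = 0.886) and -0.08 in A/J (adjusted p = 0.987), or -0.113 from replicate 3 alone.

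Dnajb1, the J-domain protein induced with HSP70 by heat, had 9.34, 9.57, 9.24 and 9.38 in DBA/2J risperidone mice by 1416755_PM_at, against 9.49, 9.64, 9.49 and 9.09 in DBA/2J controls. In A/J risperidone mice it had 9.54, 9.48, 9.35 and 9.49, against 9.49, 9.54, 9.70 and 9.64 in A/J controls. Both pairs overlapped. The difference was -0.04 in DBA/2J (limma adjusted p = 0.902), or -0.158 without DBA/2J control replicate 4, and -0.13 in A/J (adjusted p = 0.982), or -0.242 from replicate 3 alone. A second probe set, 1416756_PM_at, differed by -0.17 in both strains, or -0.28 in A/J from replicate 3 alone; averaged over them this was -0.17 (95% interval -0.32 to -0.03, adjusted p = 0.661).

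Hspb1 encodes the small heat shock protein HSP27, which in brain is found largely in glia and blood vessels. Its 4 probe sets did not move together. By 1427853_PM_a_at it had 6.01, 6.45, 6.36 and 6.65 in DBA/2J risperidone mice, against 6.39, 6.42, 6.37 and 6.43 in DBA/2J controls. A/J mice given risperidone had 6.39, 6.32, 6.44 and 6.42, against 6.22, 6.43, 6.76 and 6.20 in A/J controls. Group means differed by -0.03 in DBA/2J and -0.01 in A/J, but the spread within DBA/2J risperidone mice (SD 0.27) and A/J controls (SD 0.26) was wider than in the other 2 groups (SD 0.03 in DBA/2J controls and 0.05 in A/J risperidone mice).

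By 1422943_PM_a_at, Hspb1 had 5.89, 6.02, 5.96 and 5.62 in DBA/2J risperidone mice, against 5.66, 5.94, 5.79 and 5.68 in DBA/2J controls. The A/J risperidone mice had 5.78, 5.83, 5.82 and 5.57, against 5.94, 5.94, 6.13 and 6.03 in A/J controls, with no overlap between the A/J groups. The difference was 0.10 in DBA/2J (limma adjusted p = 0.717) and -0.26 in A/J (95% interval -0.46 to -0.06, adjusted p = 0.806), and the strain interaction was 0.37 (adjusted p = 0.461). Without the 3 A/J risperidone arrays of intermediate strain share the A/J difference was -0.190. The differences of 1425964_PM_x_at and 1427854_PM_x_at were 0.07 and -0.04 in DBA/2J and -0.17 and 0.16 in A/J.

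Counted by overlap, 0 member probe sets were higher and 3 were lower in all 4 A/J risperidone mice than in all 4 A/J controls (Hspa1b, Hsp90aa1 and Hspb1). Over all probe sets the shares were 2.34% higher and 2.08% lower. In DBA/2J, 1 was higher (Hspa5) and 1 lower (Hspa8 1431182_PM_at), beside 1.89% and 2.51% of all probe sets.

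The second question was whether the strains differ in these genes. No member passed for DBA/2J minus A/J in either treatment. In risperidone mice 0 of 19 passed, against 0.782% of all probe sets, and 2 of 19 had an unadjusted p under 0.05, against 9.43%. In control mice 0 of 19 passed, against 3.87% of all, and 2 of 19 had an unadjusted p under 0.05, against 17.7%. The median DBA/2J minus A/J difference over the 19 was 0.0225 in risperidone mice and -0.0225 in controls. In control mice the probe sets with the highest mean differed by at most 0.165 (Dnajb1, lower in DBA/2J, limma adjusted p = 0.436).

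Among the members, Hspa1b differed most between strains under risperidone. By 1452318_PM_a_at the DBA/2J minus A/J difference was 0.41 (1.33-fold higher, 95% interval 0.15 to 0.68, limma adjusted p = 0.207), and by 1427127_PM_x_at 0.36 (1.29-fold, adjusted p = 0.188). The second probe set had 5.59, 5.42, 5.47 and 5.31 in DBA/2J risperidone mice, against 4.83, 5.22, 5.22 and 5.06 in A/J risperidone mice, without overlap. From A/J replicate 3 alone the differences were 0.220 and 0.227, and that of Hspa8 1431182_PM_at was 0.52, against 0.26 over all arrays. In control mice they were -0.08 and 0.13.

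In control mice the Hspa8 probe set 1431182_PM_at was 1.49-fold higher in DBA/2J than in A/J (0.57, 95% interval 0.23 to 0.91, limma adjusted p = 0.0569), and the groups overlapped. It passed in 5 of 26 other settings, among them without A/J control replicate 2 (0.728, adjusted p = 0.0117) and without DBA/2J control replicate 3 (0.648, adjusted p = 0.0461), and was 0.478 (adjusted p = 0.151) without DBA/2J control replicate 4. Hspb1 by 1422943_PM_a_at was 0.24 lower on the log2 scale in DBA/2J controls (log2 difference -0.24, adjusted p = 0.196), and Hsp90aa1 differed by -0.14 (adjusted p = 0.318), or -0.083 without DBA/2J control replicate 4. Whether a sequence variant lies under any of these probes was not tested.

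By overlap, 2 member probe sets were higher in all DBA/2J than in all A/J risperidone mice (Hspa1b 1427127_PM_x_at and Hspa5 1416064_PM_a_at) and 0 were lower, beside 4.15% and 3.53% of all probe sets. In control mice 1 was higher (Hsp90b1 1415889_PM_a_at) and 1 lower (Hsp90aa1), beside 4.91% and 4.42%.

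Variation between mice of a group was compared next, by correlating levels over the 16 arrays after subtracting each group's mean. These values describe arrays that share tissue dissection and RNA quality. Among the 28 pairs of the 8 genes, Hsp90aa1 and Hsph1 had the highest r (0.827, Spearman's rho 0.732), and 0.709 over 15 arrays without DBA/2J control replicate 4. Hsp90aa1 and Dnajb1 had r = 0.77 and Hspa5 and Hsp90aa1 r = 0.79, which were 0.529 and 0.432 without that array. Other probe sets of the same genes gave other values. Dnajb1 by 1416756_PM_at had r = -0.079 with Hsp90aa1 and -0.452 with Hspa5. Hspa5 had r = -0.747 with Hspa8 by 1455789_PM_x_at, but 0.716 and 0.505 by 1420623_PM_x_at and 1420622_PM_a_at. Without DBA/2J control replicate 4 these 3 values were -0.409, 0.627 and 0.626.

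The ribosomal protein score, low in DBA/2J control replicate 4, moved with part of the group. Its r was 0.933 with Hspa5, 0.887 with Hsp90aa1, 0.916 with Hsp90b1 1438040_PM_a_at and -0.772 with Hspa8 1455789_PM_x_at. Without that array r was 0.80, 0.664, 0.802 and -0.424. Probe sets of 1 gene differed here too, with r = 0.137 for Hsp90b1 1415889_PM_a_at and 0.698 for Hspa8 1420623_PM_x_at. Hspa1b by 1452318_PM_a_at had r = -0.047 with the score. The part of RNA quality in these values was not tested.

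Of the 4 Hspb1 probe sets, 1 followed myelin genes. By 1427853_PM_a_at, r with the mean level of 9 oligodendrocyte markers was 0.824 (rho 0.609), and 0.88 without DBA/2J control replicate 4. With the thalamus and astrocyte marker scores r was 0.714 and 0.696, and with 3 blood genes it was -0.572. With the oligodendrocyte score the other probe sets, 1422943_PM_a_at, 1425964_PM_x_at and 1427854_PM_x_at, had r = -0.189, -0.341 and -0.195, and with 1427853_PM_a_at itself -0.075, -0.328 and 0.137. The oligodendrocyte score ranged from 7.80 to 8.69 in DBA/2J risperidone mice, against 7.81 to 8.21 in DBA/2J controls, and from 8.24 to 8.59 in A/J risperidone mice, against 8.32 to 9.004 in A/J controls. In bulk tissue, fewer cells of a type and less RNA per cell cannot be told apart. The part of myelin content in these Hspb1 values was not tested.

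**Figure D4:**
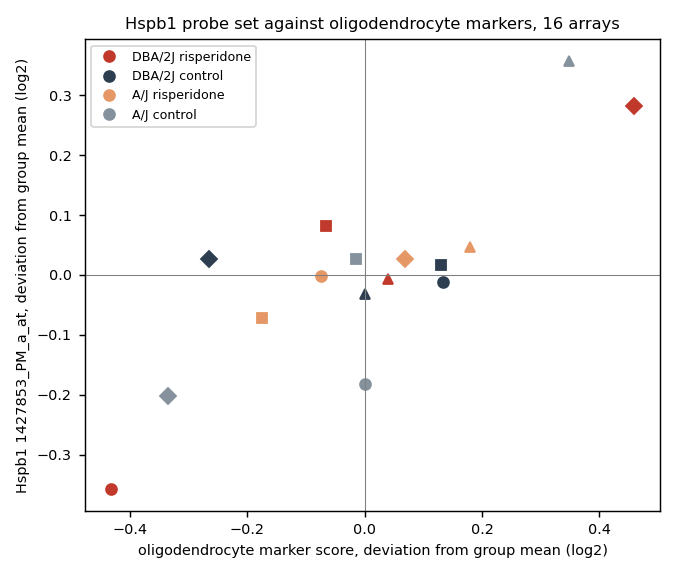
Hspb1 (1427853_PM_a_at) against the mean level of 9 oligodendrocyte markers on 16 arrays, both as log2 deviations from the group mean, with colours for groups and shapes for replicates as in the plot of levels by array. Points run from low at left to high at right, with r = 0.824, and the extremes are mice of the DBA/2J risperidone and A/J control groups.

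For each gene, by its probe set with the highest mean, the most similar of 9947 other genes was named by the same measure. Hspb1 was most like Pllp, a myelin protein gene (r = 0.947, rho 0.806). Next came Gpr107 (r = 0.917) and then Mbp, which encodes myelin basic protein (r = 0.915). Hsp90aa1 was most like Cript (r = 0.973), Hspa5 most like Dnajc18, a J-domain protein gene (r = 0.971), and Dnajb1 most like Ttll1 (r = 0.948). Hspa8 was most like Nova2, a neuronal splicing factor gene (r = 0.938), Hsph1 most like Cnpy2 (r = 0.906), Hsp90b1 most like Cartpt, a striatal neuropeptide gene (r = 0.897), and Hspa1b most like Jakmip3 (r = 0.885). Without DBA/2J control replicate 4 these top values were between 0.845 and 0.951. They are the highest of many, so high values arise among unrelated genes too.

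Genes around the members were then described by 3 lists. Of 48 cytosolic regulators and co-chaperones 43 were measured, of 32 endoplasmic reticulum chaperones and unfolded protein response genes 31, and of 24 mitochondrial and folding chamber chaperones 22. The lists were chosen with earlier results of these data known, so counts beside shares of all genes do not test them as sets. In DBA/2J, 1 gene of the 3 lists passed for risperidone, beside 0.0526% of 17097 genes. In A/J 0 passed (0.0% of genes), and the difference between strains had 0 (0.0%). For the mean effect 1 passed (0.0409%).

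That gene was Fkbp5, which encodes an HSP90 co-chaperone that lowers glucocorticoid receptor activity and is itself induced by glucocorticoids. Fkbp5 had 7.56, 7.09, 7.58 and 7.39 in DBA/2J risperidone mice, against 6.58, 6.45, 7.01 and 6.33 in DBA/2J controls. In A/J risperidone mice it had 7.08, 7.26, 7.14 and 7.11, against 6.72, 6.47, 6.88 and 6.79 in A/J controls. In each strain all risperidone mice lay above all controls. Fkbp5 rose 1.76-fold in DBA/2J (log2 difference 0.81, SE 0.13, limma adjusted p = 0.0367) and averaged 0.62 higher over both strains (adjusted p = 0.0224). The A/J difference alone was 0.43 (adjusted p = 0.609), or 0.425 from replicate 3, and the strain interaction was 0.38 (adjusted p = 0.557).

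The Fkbp5 call in DBA/2J held in 10 of 27 other settings, and over the 27 the difference stayed between 0.70 and 0.95. It was lost in a fit of only the 8 arrays compared (limma adjusted p = 0.402) and with 3 regional marker scores as covariates (adjusted p = 0.638). Leaving out any single array except A/J control replicates 2 and 3, DBA/2J control replicate 3 and DBA/2J risperidone replicate 2 ended it, at adjusted p up to 0.171. Without the 3 A/J risperidone arrays of intermediate strain share adjusted p was 0.157 at the same difference. The mean over both strains passed in 14 of 26 other settings, at differences of 0.58 to 0.69, and had adjusted p = 0.702 without those 3 arrays. Of the other 2 Fkbp5 probe sets, 1448231_PM_at differed by 0.35 in DBA/2J and 0.41 in A/J (adjusted p = 0.283 and 0.463), and 1447736_PM_at by 0.03 and 0.10. Of 9 glucocorticoid-responsive genes, Fkbp5 included, 8 had a higher value after risperidone in each strain. Only Fkbp5 itself passed in DBA/2J, 1 of the 9, and 0 passed in A/J, beside 0.0526% and 0.0% of 17097 genes. This list too was chosen with earlier results of these data known.

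**Figure D5:**
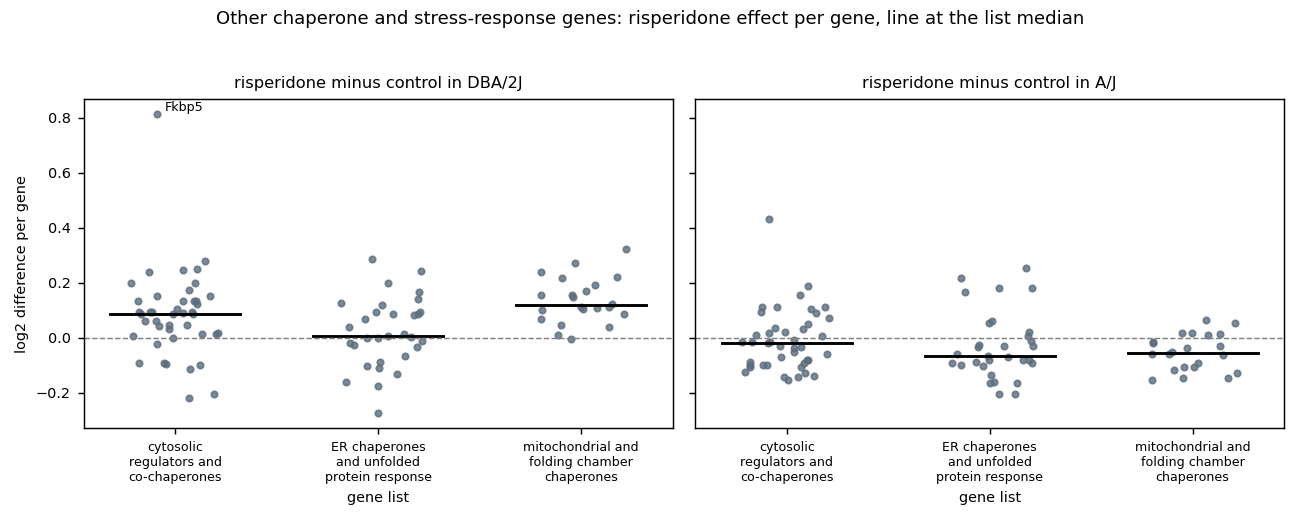
Risperidone minus control differences (log2) of the genes in 3 chaperone lists, 1 point per gene and a line at the list median, in DBA/2J (left) and A/J (right). Fkbp5 stands alone at 0.81 in DBA/2J; the list medians there are 0.09, 0.005 and 0.12, and 0.02, 0.02 and 0.05 without DBA/2J control replicate 4.

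The rest of each list differed by small amounts, which in DBA/2J depended on control replicate 4. Of the cytosolic genes, 35 had a higher and 8 a lower value after risperidone in DBA/2J, with a median of 0.0875 beside 0.01 over all genes; without DBA/2J control replicate 4 the counts were 24 and 19 and the median 0.0183. Of the mitochondrial and folding chamber genes, 21 were higher and 1 lower (median 0.1175), against 18 and 4 (median 0.0533) without that array. The endoplasmic reticulum genes had 17 higher and 13 lower (median 0.005), or 16 and 15 without it. In A/J the counts were 17 higher and 26 lower, 6 and 16, and 9 and 22 for the cytosolic, mitochondrial and endoplasmic reticulum lists. The A/J medians were -0.0175, -0.055 and -0.0675, beside -0.01 over all genes. From A/J risperidone replicate 3 alone, the counts were 17 and 26, 5 and 17, and 9 and 22.

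Values of named list genes below the threshold were small. In DBA/2J the co-chaperone gene Dnajb5 differed by -0.22 after risperidone (limma adjusted p = 0.458), Calr, which encodes the endoplasmic reticulum chaperone calreticulin, by 0.24 (adjusted p = 0.452), and Edem1, a gene for disposal of misfolded glycoproteins, by 0.28 (adjusted p = 0.406). Grpel1, which encodes the nucleotide exchange factor of mitochondrial HSP70, differed by 0.32 (adjusted p = 0.385). DBA/2J controls were spread widely for Grpel1, from 7.35 to 8.10 (SD 0.37), against 8.18 to 8.31 (SD 0.06) in DBA/2J risperidone mice. For Edem1 they ranged from 5.30 to 5.88 (SD 0.275), against 5.84 to 6.20 (SD 0.153). In A/J, Hspa12a differed by -0.14 (adjusted p = 0.939), P4hb, a protein disulfide isomerase gene, by 0.18 (adjusted p = 0.925) and Dnaja3, a mitochondrial J-domain protein gene, by -0.15 (adjusted p = 0.950).

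Between strains, 1 gene of the lists passed in risperidone mice and 3 passed in control mice, beside 0.643% and 3.46% of all genes. Dnajc10, which encodes a J-domain disulfide reductase of the endoplasmic reticulum, passed in both. Dnajc10 had 7.87, 7.83, 7.64 and 7.78 in DBA/2J risperidone mice, against 7.36, 7.35, 7.09 and 7.47 in A/J risperidone mice. It had 7.63, 7.80, 7.65 and 7.71 in DBA/2J controls, against 7.10, 7.01, 7.11 and 7.04 in A/J controls. No DBA/2J mouse overlapped an A/J mouse of the same treatment. Dnajc10 was 0.46 higher in DBA/2J under risperidone (SE 0.09, limma adjusted p = 0.0102) and 0.63 higher in controls (SE 0.09, adjusted p = 0.000153). A second probe set, 1426905_PM_a_at, gave 0.57 and 0.74 and passed in both, and the third, 1452230_PM_at, gave 0.42 and 0.23 and passed in neither. Without DBA/2J control replicate 4 the third gave 0.42 (adjusted p = 0.0173) and 0.405 (adjusted p = 0.0180) and passed in both. Under risperidone the call by 1426904_PM_s_at was lost in a fit of only the 8 arrays compared (adjusted p = 0.0518). It was also lost with 3 regional marker scores as covariates (0.41, adjusted p = 0.186). The 3 A/J risperidone arrays of intermediate strain share were also those with the higher Dnajc10 levels in their group. From replicate 3 alone the differences under risperidone were 0.69 (adjusted p = 0.0236) by 1426904_PM_s_at, 0.615 (adjusted p = 0.197) by 1426905_PM_a_at and 0.672 (adjusted p = 0.364) by 1452230_PM_at.

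Hspa2, a constitutive HSP70 gene, had 8.47, 8.39, 8.48 and 8.49 in DBA/2J controls, against 9.04, 8.81, 8.81 and 9.02 in A/J controls, and was lower in DBA/2J (-0.46, SE 0.10, limma adjusted p = 0.00918). With the regional marker scores as covariates it was -0.44 (adjusted p = 0.165), and under risperidone the difference was -0.20 (adjusted p = 0.545), or -0.288 from A/J replicate 3 alone. Hspb3, a small heat shock protein gene, had 5.85, 5.84, 5.29 and 5.47 in DBA/2J controls, against 5.08, 5.03, 5.25 and 4.93 in A/J controls, and was higher in DBA/2J (0.54, SE 0.12, adjusted p = 0.0179), at levels near or below the median probe set. Without A/J control replicate 4, or DBA/2J control replicate 1 or 2, the Hspb3 difference missed the threshold (adjusted p = 0.0606, 0.0601 and 0.0643). A fit of only the 8 arrays compared also lost the call (adjusted p = 0.0755). With the regional marker scores as covariates the Hspb3 difference was 0.558 (adjusted p = 0.2295). Under risperidone it was 0.225 (adjusted p = 0.6204), or 0.297 from A/J replicate 3 alone.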

How the data were processed

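Per the submitters' processing notes, the authors normalized the Affymetrix mouse PM arrays with RMA, version not given in the sources used here, and deposited log2 levels per probe set with 2 decimals. These values were used unchanged. Leaving out 104 array control probe sets kept 45037 of 45141 for testing, whatever their level. Probe sets were named from the platform annotation and placed on RefSeq GRCm38.p6. Where a gene has several probe sets, the one with the highest mean over the arrays stands for it; levels of different probe sets are not compared.

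All 16 arrays entered 1 limma 3.58.1 fit of 4 group means (lmFit, eBayes; R 4.3.3), two-sided, with Benjamini-Hochberg adjustment over all 45037 probe sets and a threshold of 0.05. The code was tested on simulated data. Comparisons were risperidone minus control in each strain, their mean and difference, and DBA/2J minus A/J in each treatment; those of 1 strain share its arrays. SD is over the 4 arrays of a group, labelled biological replicates; their number limits the precision. The strain share is an array's median position, on the linear scale, between the control means of both strains at 46 to 49 probe sets, the array itself left out. Figures used matplotlib 3.10.9.

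The text names all members, list genes called in a comparison and otherwise up to 4 with the smallest p, and each member's most similar gene. For Hspb1 the genes ranked 2 and 3 are named too. Members and lists were chosen with earlier results of these data known. Other settings were repeated quantile normalization, centring on medians, a level filter, 1 probe set per gene, trend and robust options, array weights, a replicate block, a 1.2-fold minimum, fewer arrays, and covariates for strain share or regional markers.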

Additional observations from a re-analysis of the deposited data

Results flagged for a closer look

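In groups of 4 arrays, Dixon's ratio marks a value whose gap to its nearest neighbour is too large a part of the group's range (the 95% critical value). Over the 76 groups of the 19 probe sets, 4 values were marked, and chance marks about 1 in 20 groups. In DBA/2J control replicate 4, Hspa5 (1416064_PM_a_at) was 8.73, against 9.45 to 9.56 in the other 3 arrays (ratio 0.867). Hsp90aa1 was 10.88 in the same array, against 11.09 to 11.12 (ratio 0.875). This array also had the lowest ribosomal protein score, 9.82. Hsp90b1 (1438040_PM_a_at) was 9.35 in DBA/2J risperidone replicate 1, against 9.47 to 9.48 (ratio 0.923), where the strain share was 87.3%. Hsph1 was 10.60 in A/J risperidone replicate 4, against 10.47 in all 3 others (ratio 1.0). With 2 decimals and so narrow a range, a gap of 0.13 was enough.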

How the results depend on the processing

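The count of member probe sets called was 0 in all 6 comparisons and stayed 0 under every other setting in 4 of them. For the mean risperidone effect it was 1 with the filter on probe sets above the median level, with trend and robust options, and with the replicate block, and between 0 and 1 without each array in turn. For DBA/2J minus A/J in control mice it was likewise 1 with that filter, with trend and robust options and with the replicate block, and between 0 and 1 without each array. The probe set was Hspa8 1431182_PM_at each time. Its mean effect was -0.642, with adjusted p = 0.0288, 0.0294 and 0.0336 under those 3 settings, and its strain difference 0.573, with adjusted p = 0.0345, 0.0392 and 0.0317. The filter tests fewer probe sets; for the others the cause was not tested. Replicate numbers were not used as pairs, since only 1 or 2 of the 4 same-numbered pairs in each comparison correlated above 0.1. Of 2998 differences under other settings, 145 had the opposite sign. The largest of these was 0.691, for Hspa1b 1452318_PM_a_at between control mice in the fit with strain share as a covariate, where strain and share are nearly collinear and strain differences can grow, shrink or turn; with it Dnajc10 was 0.046 in risperidone and 0.033 in control mice and Hspa2 -0.205. The fit on only the 8 arrays compared has no value for the mean effect or the difference between strains. The 4 arrays per group limit precision, and A/J risperidone has 1 array left without its 3 arrays of intermediate strain share.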
